A study of Mus musculus with 1119 samples.

Results

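Smooth muscle and pericyte genes were followed in single cells sorted from mouse back skin. The 9 genes, taken by symbol out of 46517 genes in the expression tables, were Acta2, Myh11, Myl9, Tagln, Cnn1, Tpm2, Actg2, Rgs5 and Des. They were chosen by their measured levels, since contractile cells had been seen in the hair bulb and dermal papilla sorts of postnatal day 30 (P30), so their presence there is a description and not a finding. The choice also named the co-expression of these genes with Krt5, a keratin of basal keratinocytes, in single cells. How the genes combined within 1 cell and whether those cells carried Krt5 are thus descriptions too. Which other genes the cells carried was not named in the choice.

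The study measured 1119 cells by Smart-seq2 and named 6 cell types. The P30 dermal papilla cells (87, 87, 86 and 77 on 4 plates, labelled "Ana6 dernal papilla cells" by the authors) came from male K14-H2BGFP;LEF1-RFP mice, sorted by GFP, RFP, integrinα9 and CD117. The 39 telogen bulge stem cells and 71 telogen hair germ cells of P21, the 89 Ana1 hair germ cells of P23 to P27 and the Ana2 matrix cells (TACs) of P25 to P27 (55, 76 and 68 on 3 plates) came from Lgr5-eGFPiresCreER;R26-tdTomato mice of both sexes. These were sorted by GFP, tdTomato, integrin α6, integrin b1, CD34 and Pcadherin. The Ana6 matrix cells (TACs), which are all cells of the P30 hair bulb sort (76, 78, 75, 74 and 81 on 5 plates), came from Lhx2-GFP (CD1) mice of both sexes, sorted by GFP, Sca-1, CD34, Pcadherin and the integrins α6 and b1. In the K14 line a keratin promoter drives the nuclear GFP, and in the Lgr5 line the reporter follows an epithelial stem cell gene.

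Each sample is 1 cell and no animal is named, so every group counted as 1 sample and no difference was tested. Strain, sort and table differ together between the dermal papilla sort, the hair bulb sort and the P21 to P27 cells, and the make-up by sex differs between the dermal papilla sort and both others, so in any comparison between these 3 sets the parts of these cannot be told apart. Levels are in TPM, a transcript abundance scaled by length and to an equal total per cell, and a gene was counted as present at 1 TPM or more. Intervals of shares are exact binomial (Clopper-Pearson) intervals at 95% and cover the counting of cells only. Differences are of mean log2(TPM + 1), and a difference of 1 or more in size is called higher or lower. The median number of genes per cell was 5740 in the dermal papilla sort, from 5459 to 6654 in the 4 types of P21 to P27, and 7344.5 in the hair bulb sort, and the lowest was 0 in the dermal papilla, 3529 in the bulge, 71 in the telogen germ, 2 in the Ana1 germ and 43 in both the Ana2 matrix and the hair bulb. Some cells of every type but the bulge thus held almost no genes. In the hair bulb sort 45.3% of the cells had Mlana, a melanocyte gene, against 0.890% in the dermal papilla sort, so cells there carried transcripts of more than 1 lineage. The part this had in the results below was not tested.

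Smooth muscle cells shorten when phosphorylated myosin slides along actin. The thick filament is built on the heavy chain Myh11 and the regulatory light chain Myl9, and the thin filament on the actins Acta2 and Actg2 with the tropomyosin Tpm2, the calponin Cnn1 and transgelin, the product of Tagln. Des encodes desmin, an intermediate filament of smooth and skeletal muscle, and Rgs5, a regulator of G protein signalling, marks pericytes, the mural cells of small vessels. In skin these genes are known from arrector pili muscles, vessel walls and the dermal sheath that wraps the follicle, and the transcription factor SRF with its partner myocardin drives many of them through the CArG box.

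The CArG boxes of the promoters are shown for Acta2 and Myl9, the pair among the members searched that carried one. RefSeq promoters on GRCm38.p6 were at hand for 6 of the 9 genes (Acta2, Myl9, Cnn1, Tpm2, Rgs5 and Des). Both strands of the 250 bases before each start were searched for the box, first as a full match and then with 1 mismatch allowed in its 6-base core. A full match stood in 1 of the 6 promoters (Myl9), against 1.62% of 27025 genes, and a match with up to 1 mismatch in 2 of the 6 (Myl9 and Acta2), against 9.78% of all. In the Myl9 stretch (chr2:156775214-156775419, plus strand), which ends at the base before the GENCODE start, the nearer of the 2 boxes, a box with 1 mismatch, begins 55 bases before that start and the full match lies farther off. In Acta2 (minus strand) they begin 84 bases (chr19:34255438-34255467) and 34 bases (chr19:34255388-34255417) before the RefSeq start. GENCODE starts Acta2 farther upstream, and both boxes lie within its exon 1 there (34255290 to 34255590). Capitals mark the boxes, which read as a box on either strand. A match is a description and does not show binding.
Myl9 promoter: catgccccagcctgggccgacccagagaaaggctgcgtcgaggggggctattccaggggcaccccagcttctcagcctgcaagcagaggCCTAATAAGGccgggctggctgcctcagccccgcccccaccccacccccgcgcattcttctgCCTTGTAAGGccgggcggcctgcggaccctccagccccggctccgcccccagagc
Acta2 distal box: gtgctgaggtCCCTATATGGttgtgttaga
Acta2 proximal box: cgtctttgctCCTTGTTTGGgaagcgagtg

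The 9 genes fell into a broad pair and 7 narrow genes. Myl9 and Tpm2 were present in every cell type at 20.1% or more, while each of the other 7 was in 7.69% or fewer of the cells of every P21 to P27 type. TPM is scaled by transcript length, so levels may be set side by side between genes.

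Myl9 was present in 64.7% of dermal papilla cells (59.3 to 69.8%, mean 86.2 TPM). Along the epithelial stages its share was 25.6% in bulge cells (13.04 to 42.1%), 29.6% in telogen hair germ cells (19.3 to 41.6%), 49.4% in Ana1 hair germ cells (38.7 to 60.2%), 20.1% in Ana2 matrix cells (14.77 to 26.3%) and 27.9% in the P30 hair bulb sort (23.4 to 32.6%). The intervals of the dermal papilla and Ana1 germ overlap, as do those of the bulge, telogen germ and both matrix types, while the Ana1 germ lies above both matrix types and overlaps the bulge and telogen germ. Mean log2(TPM + 1) of Myl9 was 1.59 lower in Ana2 matrix than in Ana1 germ cells (Ana2 minus Ana1 -1.59), a comparison in which 6.04% of 12533 genes were called lower and 0.646% higher. Ana1 minus telogen germ gave 0.97, and 1.47 without the plate of P23 to P24, which leaves 16 Ana1 cells. In that comparison 4.91% of 12956 genes were called higher and 5.05% lower. Bulge minus telogen germ cells gave no member a difference of 1 or more, where 3.02% of genes were called higher and 5.77% lower. Dermal papilla minus hair bulb gave 2.34, where 7.79% of 14020 genes were called higher and 21.3% lower.

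Tpm2 was present in 57.9% of dermal papilla cells (52.4 to 63.2%, mean 24.2 TPM), 46.2% of bulge cells, 26.8% of telogen germ cells, 50.6% of Ana1 germ cells, 25.1% of Ana2 matrix cells and 39.3% of hair bulb cells (34.4 to 44.4%, mean 36.2 TPM). The dermal papilla had the larger share and the hair bulb the larger mean. On the log scale dermal papilla minus hair bulb was 0.90 for Tpm2, under the size called, and 1.01 or 1.04 with plate DP5 or P1-4 left out.

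Acta2 was present in 8.01% of dermal papilla cells (27 cells, 5.35 to 11.4%), at 1.2 to 653 TPM with a median of 54.1 TPM among them. The P21 to P27 cells gave 1 bulge cell (586 TPM), 0 of 71 telogen germ cells (up to 5.06%), 1 Ana1 germ cell (2.56 TPM) and 1 Ana2 matrix cell (3349 TPM). In the hair bulb sort 25.8% of cells (99 cells, 21.5 to 30.5%) had Acta2, at 1.55 to 4701 TPM with a median of 188.2 TPM. The hair bulb share lay above that of every other type, and its 5 plates ran from 9.88 to 33.8%, against 4.60 to 12.6% on the 4 dermal papilla plates, so the lowest hair bulb plate falls within the dermal papilla plates. Dermal papilla minus hair bulb was -1.38, and hair bulb minus Ana2 matrix 1.79, where 8.29% of 13334 genes were called higher and 4.21% lower.

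Tagln was present in 7.12% of dermal papilla cells (mean 2.34 TPM) and 21.9% of hair bulb cells (17.8 to 26.3%, mean 33.9 TPM). In both P30 sorts its mean was under that of Acta2 (10.6 and 185.2 TPM). Among the P21 to P27 types it was in 3.02 to 7.69% of cells, in each type a larger share than Acta2 had. Of the 24 dermal papilla cells with Tagln, 12 had Acta2. Hair bulb minus Ana2 matrix was 1.10 for Tagln, and 0.97 without plate P1-6. Dermal papilla minus hair bulb was -0.94, and -1.17 without plate P2-1.

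Of the remaining 5 genes, Myh11, Rgs5, Cnn1 and Des were in few cells outside the hair bulb sort, while Actg2 was in cells of both P30 sorts. Myh11 was in 2 dermal papilla cells (9.93 and 13.4 TPM), 1 bulge and 1 Ana2 matrix cell (6.74 and 174.6 TPM), and 26 hair bulb cells (6.77%, 4.47 to 9.76%) at 1.46 to 605 TPM with a median of 212.2 TPM. Rgs5 was in 1 dermal papilla cell and 29 hair bulb cells (7.55%, 1.18 to 1740 TPM, median 53.2 TPM). Cnn1 was in 0.297% of dermal papilla cells and 6.51% of hair bulb cells. Des was in 6 dermal papilla cells (1.78%) and 47 hair bulb cells (12.2%). Actg2 was in 12 dermal papilla cells (3.56%, 1.85 to 6.14%) and 18 hair bulb cells (4.69%, 2.80 to 7.31%), intervals that overlap. None of these 5 differed by 1 or more on the log scale between any of the 5 pairs of types compared. Myh11, Cnn1, Actg2 and Rgs5 were in under 10% of the cells of every type, the limit for calling a gene. By share, the intervals of Myh11, Rgs5, Cnn1 and Des in the hair bulb lay above those in the dermal papilla. For Myh11 they were 4.47 to 9.76% and 0.0720 to 2.13%, and for Rgs5 5.12 to 10.7% and 0.00751 to 1.64%.

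**Figure D1:**
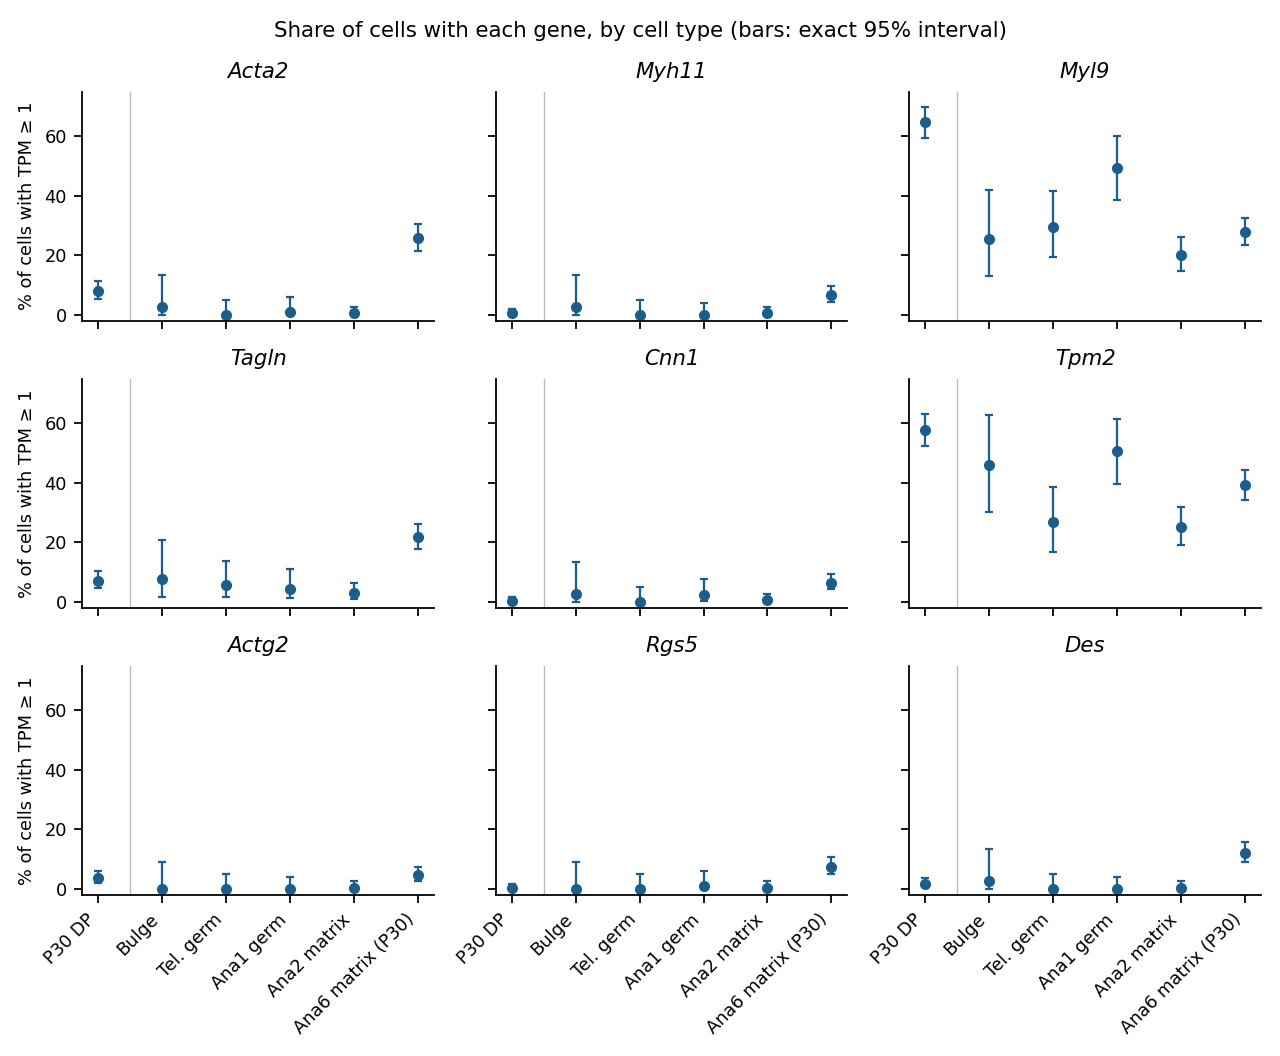
Share of cells with each of the 9 genes at 1 TPM or more (y axis, percent) in the 6 cell types (x axis, P30 dermal papilla and then the epithelial types from bulge to P30 matrix). Points are shares and vertical bars exact 95% intervals for the counting of cells. Myl9 and Tpm2 are present in all types, and Acta2 and Tagln reach 25.8% and 21.9% in the P30 hair bulb.

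Within single cells the number of the 9 genes present was counted next. Of the dermal papilla cells, 72, 98, 130, 22, 13 and 2 held 0, 1, 2, 3, 4 and 5 of the 9 genes. Of the hair bulb cells, 160, 98, 42, 29, 29, 3, 0, 7, 7 and 9 held 0 to 9. Most hair bulb cells held 0 or 1, and between the 29 cells with 4 genes and the 23 with 7 to 9 stood only 3 with 5 and none with 6. Cells with 5 or more numbered 2 in the dermal papilla (0.593%, 0.0720 to 2.13%), 1 among Ana2 matrix cells (0.503%), 26 in the hair bulb (6.77%, 4.47 to 9.76%, from 3.70 to 10.8% by plate) and 0 in bulge and hair germ cells. Just inside that limit stood 3 hair bulb cells with 5 genes, and just outside it 29 with 4, of which 26 held the same set of Acta2, Myl9, Tagln and Tpm2 together with Krt5.

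The 99 hair bulb cells with Acta2 divided by Myh11, Krt5, Tagln and 5 muscle progenitor genes into 4 kinds, a division made after the values were seen. There were 24 cells with Myh11 (Acta2 482 to 4701 TPM, median 2178 TPM), 20 with muscle progenitor genes (1.80 to 1440 TPM, median 86.7 TPM), 34 with Krt5 and Tagln (3.55 to 799 TPM, median 140.6 TPM) and 19 with Krt5 but no Tagln (1.55 to 585 TPM, median 8.69 TPM). The Myh11 cells hold the highest Acta2 levels, and the ranges of all 4 kinds overlap. Another 2 cells fitted no kind, at 10.04 and 4486 TPM, the higher one in a cell with 43 genes.

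**Figure D2:**
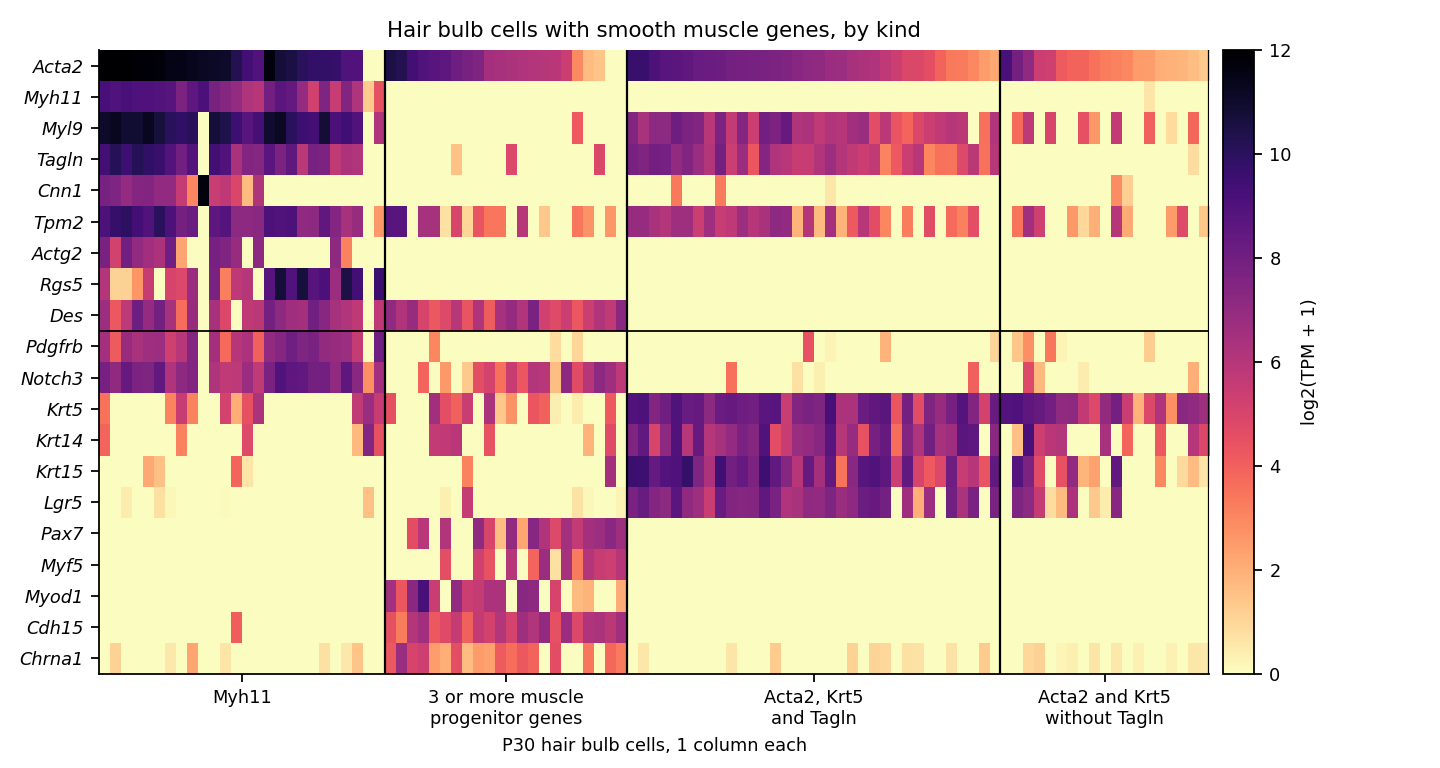
Heat map of log2(TPM + 1), from 0 to 12, in P30 hair bulb cells (columns, 1 cell each) for the 9 genes and genes of the compared lineages (rows). Columns are 26 cells with Myh11, 22 with muscle progenitor genes, 34 with Acta2, Krt5 and Tagln and 19 with Acta2 and Krt5 but no Tagln. Des is shared by the first 2 kinds named, Myl9 and Tagln by the Myh11 cells and those with Acta2, Krt5 and Tagln, and Rgs5 stands in the Myh11 cells.

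The 26 Myh11 cells held nearly the whole set. With Myh11, Acta2, Myl9 and Tpm2 were each present in 24 cells, Tagln and Des in 23, Rgs5 in 22, Cnn1 in 15 and Actg2 in 14. Acta2 ran from 0 to 4701 TPM with a median of 1917 TPM, Myl9 from 0 to 2482 TPM (median 1053 TPM) and Tpm2 from 0 to 1069 TPM (median 326.8 TPM). Tagln had a median of 235.7 TPM, Des of 84.8 TPM, Rgs5 of 66.1 TPM, Cnn1 of 18.6 TPM and Actg2 of 5.70 TPM. The actin and the light chain were thus the most abundant members, and Cnn1, Actg2 and Rgs5 the most uneven. The highest Cnn1 value, 3331 TPM, came from a cell with 67 genes.

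Genes of mural cells outside the 9 were present as well. Pdgfrb, the PDGF receptor of mural cells, was present in 24 of the 26, and Notch3 and Mcam, a vascular smooth muscle receptor and a mural adhesion molecule, in 25 each. Pdgfra, the PDGF receptor of fibroblasts and dermal papilla, the endothelial cadherin Cdh5 and the muscle progenitor factors Pax7, Myf5 and Myod1 were each in 0 of 26, and the endothelial Pecam1 was in 1.

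Across all genes, the 26 hair bulb cells with 5 or more members (24 of them Myh11 cells) were set against all other hair bulb cells. Of 14230 genes 9.39% were called higher and 12.5% lower, with a median difference of -0.20. Of 26 further contraction genes 22 were higher and 0 lower (median 2.98), led by the actin- and myosin-binding caldesmon Cald1 (7.23), the myosin light chain kinase Mylk (6.07), Synpo2 (5.37) and the tropomyosin Tpm1 (5.24). Of 14 pericyte genes 13 were higher (median 3.46), among them Pdgfrb (5.73), the soluble guanylate cyclase subunit Gucy1a3 (5.71), Mcam (5.68) and Rgs4 (5.19). Of 22 regulators, 19 of which passed the filter on low values, 9 were higher and 1 lower, with Notch3 at 6.05, Mef2c at 5.36 and Myocd, which encodes myocardin, at 4.75. Myocd was present in 76.9% of these cells and in 0 of the others.

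Keratinocyte genes went the other way. Of 16 keratinocyte markers 13 were lower and 0 higher (median -2.39), among them Krt17 (-4.15), the cell cycle inhibitor Sfn (-4.05), the basal transcription factor Trp63 (-3.52) and the hemidesmosome integrin Itgb4 (-3.01). Of 15 matrix and hair shaft genes 7 were lower and 0 higher. The largest positive differences were Sparcl1 (8.63), the LIM protein Crip1 (8.06), Tinagl1 (7.48), the focal adhesion protein Tns1 (7.35), the caveolar protein Cav1 (7.11), the vascular amine oxidase Aoc3 (6.74), Sparc (6.67), Vim (6.24) and Serping1 (6.23). The retinol transporter Stra6 (-4.13), S100a14 (-4.10) and Fabp5 (-3.99) were among the most negative.

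Other lineages gave small counts. Of 15 skeletal muscle genes 1 was higher (Myl1, 1.03) and 9 were absent from these cells. Of 11 endothelial genes 2 were higher (Esam at 4.94 and Eng at 2.95) and 5 absent, and of 10 immune genes none passed the filter and 8 were absent. Of 13 fibroblast genes 4 were higher and 1 lower, the collagens Col1a2 (4.17), Col3a1 (4.13) and Col1a1 (2.98) with Sparc, against Fbln1 (-1.95). Dermal sheath genes were higher in 5 of 12 and lower in 0, with 7 past the filter (median of those past it 3.12, of the 12 0.42). Dermal papilla genes were higher in 2 and lower in 2 of 23 (Inhba 2.96, Lef1 -3.07). Melanocyte genes were lower in 1 of 9 (Dct, -2.16) and Schwann cell genes lower in 1 of 8. Of the other actins and tropomyosins, cytoplasmic Actb was 1.34 higher (0.78 where 4 members sufficed), while Actg1 (0.27), Tpm3 (-0.39), Tpm4 (0.58), Acta1 (0.08) and Actc1 (-0.09) stayed under 1.

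Cnn1 divided the Myh11 cells, a split added after the values were seen. The split was uneven over plates. Cells with Cnn1 came from 5 plates and those without it from 4, none of them from P1-5. With plate P1-4 left out, only 5 of the 11 cells without Cnn1 remain. The part of plate in the differences below was not tested. Acta2 ran from 487 to 4701 TPM (median 2809 TPM) in the 15 cells with Cnn1, against 0 to 3221 TPM (median 902 TPM) in the 11 without it. Rgs5 went the opposite way, with a median of 27.6 TPM and a highest value of 217.1 TPM in the cells with Cnn1, against a median of 555 TPM and a highest of 1740 TPM in those without. Both pairs of ranges overlap, and in the upper part of the Rgs5 range only cells without Cnn1 were found. As differences, cells with Cnn1 minus those without, Acta2 was 3.00, Tagln 2.43, Tpm2 1.43, Myl9 0.97 and Rgs5 -4.74. Actg2 was present in 12 of the 15 cells with Cnn1 and 2 of the 11 without (medians 115.6 and 0 TPM, difference 4.43). Myh11, which chose the cells, had medians of 443 and 124.3 TPM.

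In this split 5.74% of 13428 genes were called higher and 11.4% lower. The genes highest with Cnn1 were the ATP receptor of smooth muscle P2rx1 (4.33), Thbs1 (3.87), Grip2 (3.68), the small heat shock protein Hspb6 (3.65), the calcium pump inhibitor Pln (3.60, present in 80% and 0% of the cells), the integrin Itga8 (3.59), Wfdc1 (3.56), Susd5 (3.48), smoothelin, the product of Smtn (3.45), and Inhba (3.24). The most negative were the fatty acid transporter Cd36 (-4.75), the imprinted transcripts Rian (-4.74) and Meg3 (-4.21), Cyp4b1 (-4.48), Pltp (-4.31) and vitronectin, the product of Vtn (-4.22). Of 26 contraction genes 11 were higher and 1 lower (median 0.61, against -0.11 for all genes). Of 14 pericyte genes 2 were higher and 8 lower (median -1.12), the lower ones including Vtn, the potassium channel subunit Abcc9 (-3.67), Ndufa4l2 (-3.45), Steap4 (-2.65) and Higd1b (-2.55), while the proteoglycan Cspg4 was 1.87 higher. Des was -0.84, and the regulators were higher in 5 and lower in 2 of 22.

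This contrast depended on which cells it held. With values rescaled to leave out mitochondrial, ribosomal RNA and spike-in rows, and the same cells kept, contraction genes were higher in 12 and lower in 1, pericyte genes higher in 3 and lower in 9, and Rgs5 -5.09. When the rescaled values also chose the cells, 5 cells whose Myh11 had stood under 1 TPM entered the group without Cnn1 (31 cells in all), contraction genes were higher in 22 and lower in 1, pericyte genes higher in 7 and lower in 6, Des 1.57 and Rgs5 -1.79. Without plate P1-4, which leaves 14 cells with Cnn1 and 5 without it, 26.2% of genes were called in place of 17.1%, with Rgs5 at -5.48, Acta2 at 3.85 and pericyte genes higher in 2 and lower in 8. Without plate P1-5, which leaves 10 cells with Cnn1 and 11 without it, the balance of calls turned, with 1423 genes higher and 1237 lower and a median of all genes of 0.10. Contraction genes were then higher in 12 and lower in 1, and pericyte genes higher in 3 and lower in 6. Over the 5 plates left out in turn, Rgs5 ran from -5.48 to -4.29 and Acta2 from 2.21 to 3.85, while Tpm2 was 0.92 without plate P2-1 and Myl9 1.54 without plate P1-5. With cells of 2000 or more genes, which drops 1 cell with Cnn1, 1078 genes were higher and 1178 lower, against 771 and 1529 with all cells.

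**Figure D3:**
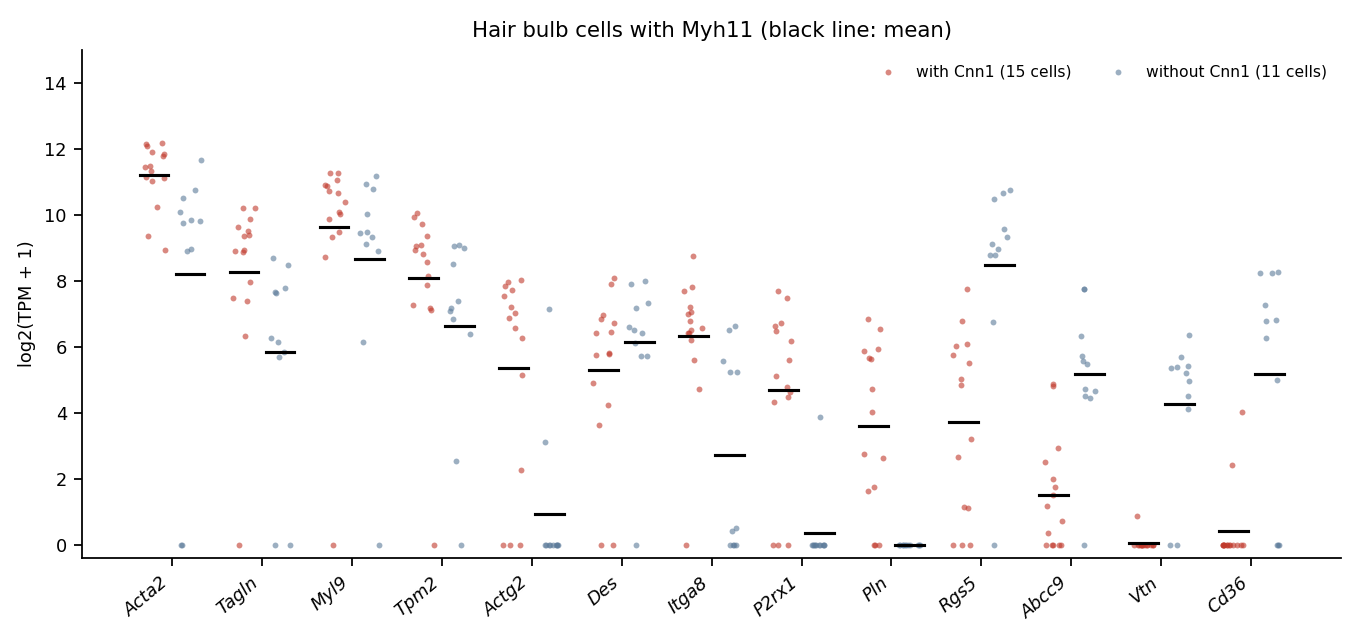
log2(TPM + 1) (y axis) of 13 genes in the 26 P30 hair bulb cells with Myh11, 1 point per cell, with the 15 cells that have Cnn1 in red on the left and the 11 without it in blue on the right, and black lines at the means. Acta2, Tagln and Actg2 stand higher in the cells with Cnn1, while Rgs5, Abcc9, Vtn and Cd36 stand lower, with overlap in most genes.

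The genes most like Acta2 and Rgs5 were then listed. Across the hair bulb cells of all 5 plates, and among 15015 genes, the log2(TPM + 1) of Acta2 was most like that of Tagln (r = 0.77), Cald1 (0.74), Myl9 (0.73), the basement membrane collagens Col4a2 and Col4a1 (0.72 each) and Tpm2 (0.71). Rgs5 was most like Abcc9 (r = 0.88), Fhl5 (0.84), Mrvi1 (0.83), Tusc5 and Gucy1a3 (0.82 each), and a predicted gene. Acta2 and Rgs5 themselves had r = 0.49, and Rgs5 and Myh11 r = 0.78. Rgs5 rests on 29 cells and Acta2 on 99, and the cells share sort, table and plates. In the dermal papilla (all 4 plates, 13853 genes) Acta2 was instead most like netrin 1, the product of Ntn1 (r = 0.66), Lrrc15 (0.64), Tagln (0.63), Olfml2a (0.60), Thbs2 (0.59) and Spock1 (0.58), and Rgs5 was in 1 cell there. In both sorts r was taken over all cells, also those of under 2000 genes. All such dermal papilla cells lacked Acta2, and their part in r was not tested.

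Krt5 divided the contractile cells of the hair bulb. It was present in 12 of the 26 cells with 5 or more members (46.2%, 26.6 to 66.6%), against 82.7% of the other cells (78.4 to 86.5%). In Myh11 cells it was present in 11 of 26 (42.3%, 23.4 to 63.1%), at 3.08 to 111.9 TPM with a median of 32.8 TPM, against 82.96% of cells without Myh11 (78.7 to 86.7%). The Krt5 share was thus lower in Myh11 cells and far from 0. The 11 Myh11 cells with Krt5 had a median of 8269 genes and 12 of 16 keratinocyte markers (summed median 350.85 TPM), while the 15 without Krt5 had 6022 genes and 2 of 16 markers (12.2 TPM). By the median, cells that held Krt5 beside Myh11 therefore also held more genes in all. The ranges overlap, at 2352 to 9327 genes with Krt5 and 67 to 6706 without it. The part of gene number in the co-expression was not tested. With 4 members as the limit the Krt5 share of the hair bulb class was 72.7%, since most cells with 4 members were Krt5 cells.

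Seen from Acta2, Krt5 was present in 2 of 27 dermal papilla cells with Acta2 (7.41%, 0.910 to 24.3%) and in 72 of 99 hair bulb cells with Acta2 (72.7%, 62.9 to 81.2%). Within the hair bulb Acta2 was present in 23.4% of cells with Krt5 (72 cells, 18.8 to 28.5%) and in 27 of 76 without it (35.5%, 24.9 to 47.3%), intervals that overlap. Over all hair bulb cells the log levels of Acta2 and Krt5 had r = -0.08 and rho = 0.03, so the levels of the 2 genes showed no linear order although many cells held both.

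**Figure D4:**
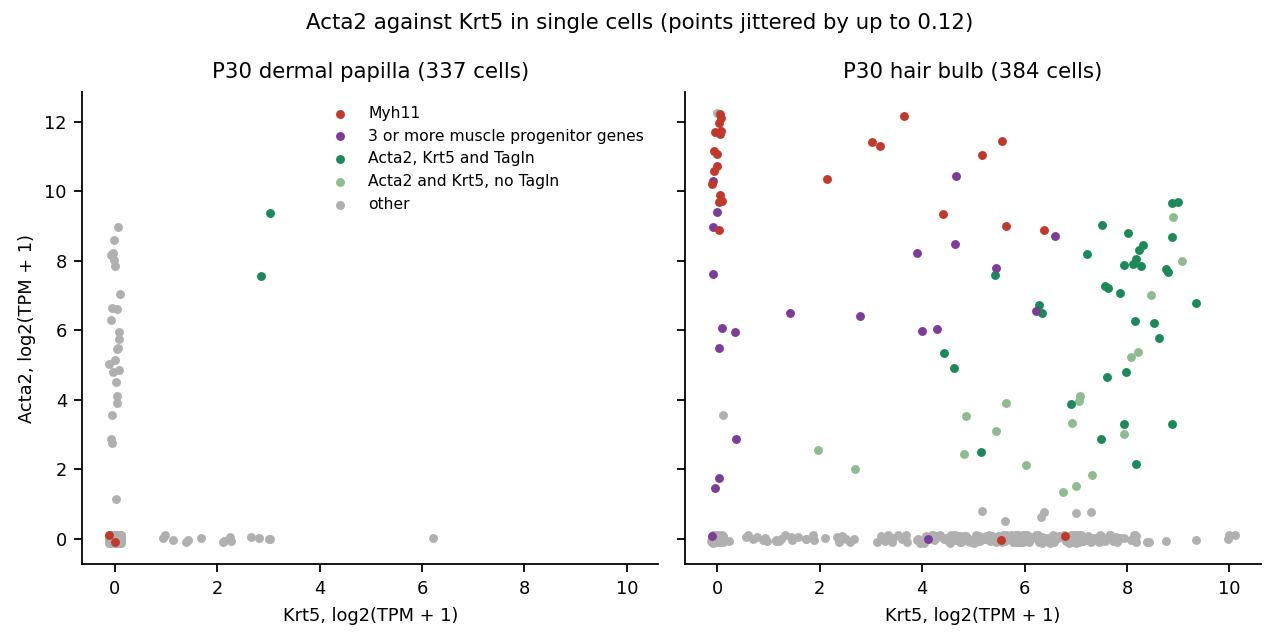
Acta2 (y axis) against Krt5 (x axis), both log2(TPM + 1), 1 point per cell, in the P30 dermal papilla and hair bulb sorts, with points moved at random by up to 0.12 on both axes to part those at 0. Most hair bulb cells with Acta2 also have Krt5 (72 of 99), against 2 of 27 dermal papilla cells, and the highest Acta2 level (4701 TPM) is in a Myh11 cell.

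Of the 72 hair bulb cells with Acta2 and Krt5, 53 had neither Myh11 nor the muscle progenitor genes. They came from all 5 plates (5 to 16 cells each, 6.17 to 21.1% of a plate). The absence of Myh11 was fixed by how they were chosen. So in part was that of Des, since the 22 cells with muscle progenitor genes, all with Des, were left out. Of those 22, 10 had Acta2 and Krt5. Beyond that they differed from the Myh11 cells in Rgs5 and Actg2, which were at 0 in all 34 of the 53 that had Tagln. Des was at 0 in these 34 as well. In those 34 cells Acta2 ran from 3.55 to 799 TPM (median 140.6 TPM), Tagln from 7.15 to 248.5 TPM (median 60.4 TPM), Myl9 from 0 to 314.6 TPM (median 69.2 TPM), Tpm2 from 0 to 142.6 TPM (median 42.3 TPM) and Krt5 from 19.4 to 614 TPM (median 260 TPM). They held 13 to 16 of the 16 keratinocyte markers each. Their thin filament genes and light chain stood beside a nearly full keratinocyte set, in cells chosen to lack the smooth muscle heavy chain.

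The 53 cells were set against the hair bulb cells with Krt5 and no Acta2, again without Myh11 and muscle progenitor genes. Of 13603 genes 3.94% were called higher and 6.67% lower. Myl9 was present in 77.4% and 15.02% (difference 4.03), Tagln in 64.2% and 8.15% (3.53) and Tpm2 in 73.6% and 31.8% (2.47). Cnn1 (0.14), Actg2 (-0.05), Rgs5 (-0.08) and Des (-0.01) differed by less than 1. Krt5 was 1.61 higher (medians 215.7 and 59.6 TPM). Lgr5, a stem cell receptor of the follicle, was present in 71.7% of the cells with Acta2 and 5.58% of those without (4.56), and it was the driver of the reporter in the P21 to P27 mice but not in the hair bulb mice.

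The genes highest in the Acta2 and Krt5 cells were Krt15, a keratin of the bulge and outer root sheath (4.61), Cald1 (4.29), the collagen Col16a1 (4.08), biglycan, the product of Bgn (3.97), the glutamate transporter Slc1a3 (3.93), the filamin-binding Fblim1 (3.81), Smtn (3.73), Cyp2s1 (3.54), Il11ra2 (3.41) and Cmah (3.25). The most negative were Fabp5 (-2.95), the matrix transcription factor Msx2 (-2.60), Wnt5a (-2.48), the sterol enzyme Lss (-2.27), Stmn1 (-2.26) and the desmosomal Pkp1 (-2.25). Of 26 contraction genes 6 were higher and 0 lower, with 18 past the filter (median of the 26 0.10, of all genes -0.17). They were Cald1, Smtn and Tpm1 (2.96), and the general cytoskeletal genes Flna (1.93), Actn1 (1.56) and Myh9 (1.14). Of 15 keratinocyte genes 6 were higher and 0 lower, with Krt15, Krt14 (2.38), Lamb3 (1.43) and Cdh1 (1.22) among them.

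Of 15 matrix and hair shaft genes 8 were lower and 2 higher, the lower ones led by Foxq1 (-2.85), Krt75 (-2.79), Msx2 and Dlx3 (-2.19), while Lhx2, the gene of the sort's reporter, was 2.45 higher. Of 14 pericyte genes 3 were higher, Cspg4 (2.43), Steap4 (1.80) and Mcam (1.35), and Pdgfrb was 0.11. Of 9 melanocyte genes 5 were lower (Dct -2.85, Mlana -1.67). The Wnt effector Lef1 was -3.59, and among 22 regulators Notch1 (2.01) and Mkl1, which encodes an SRF partner (1.58), were higher and Ednra (-2.41) was lower. Dermal sheath genes were higher in 1 and lower in 1 of 12, and of 10 immune genes none passed the filter.

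Desmin in the hair bulb came from 2 kinds of cell. Of the 47 cells with Des, 23 were Myh11 cells, 22 carried muscle progenitor genes and 2 neither. The 22 cells (5.73% of the hair bulb, on 4 of the 5 plates) were defined, after values were seen, by 3 or more of Pax7, Myf5, Myod1, Cdh15 and Chrna1, genes of skeletal muscle stem cells, myoblasts and their acetylcholine receptor. Pax7 was in 17 of them, Myf5 in 12, Myod1 in 16, Cdh15 in 22 and Chrna1 in 18.

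In these 22 cells Des ran from 16.01 to 205.5 TPM with a median of 56.1 TPM. Acta2 was in 20 of them, Krt5 in 11, the cardiac actin Actc1 in 4 (up to 2265 TPM) and the skeletal actin Acta1 in 7 (up to 744 TPM). The smooth muscle partners were mostly missing, since among the 20 cells with Acta2 Tpm2 was in 13, Tagln in 3, Myl9 in 1, and Myh11, Cnn1, Actg2 and Rgs5 in 0. Notch3 was in 17 and Pdgfrb in 2 of the 22. Acta2 and Des thus stood together in cells without the smooth muscle heavy chain as well as in cells with it.

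In the dermal papilla sort Acta2 marked cells of another make-up. The 27 cells with Acta2 (1.2 to 653 TPM, median 54.1 TPM) held Myl9 in 88.9% (median 279.2 TPM), against 62.6% (median 25.8 TPM) of the 310 without Acta2. Tagln was in 44.4% and 3.87%, and Tpm2 had medians of 49.4 and 4.34 TPM. The differences were 3.26 for Myl9, 2.06 for Tagln, 1.89 for Tpm2 and 0.62 for Actg2, the last present in 11.1% and 2.90%. These values, and those of Pdgfra that follow, hold all cells. They include the cells with under 2000 genes, all of which lacked Acta2. Pdgfra was in 27 of 27 cells with Acta2 and in 88.4% of those without. The mesenchymal receptor was thus present in most dermal papilla cells with or without Acta2. In the hair bulb it was at 0 in the Myh11 cells, but it was rare in that whole sort. Of the hair bulb cells with under 5 members 3.63% had it, and strain and sort differ between the P30 sorts.

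Here 6.55% of 12769 genes were called higher and 2.03% lower, so that 76.4% of the calls were higher. All 27 Acta2 cells had 2000 or more genes while 33 of the others did not, and with those 33 left out 44.5% of the calls were higher (422 genes higher and 526 lower). The genes highest with Acta2 were the matricellular Cyr61 (4.76), Igfbp3 (4.03), Lrrc15, a membrane protein of activated fibroblasts (3.80, present in 62.96% and 7.74%), Smoc2 (3.67), Tmem204 (3.52), Ntn1 (3.46), Crip1 (3.44), the surface protein Thy1 (3.44), Col6a1 (3.43) and Igfbp4 (3.18). Among the most negative were the Wnt agonist Rspo4 (-3.54), Plod2 (-3.10), the netrin receptor Unc5c (-3.08) and Cntn1 (-3.06).

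Of 26 contraction genes 12 were higher and 0 lower with 20 past the filter, and 10 and 0 among cells of 2000 or more genes. Of 12 dermal sheath genes 7 were higher and 0 lower, or 6 and 2 among cells of 2000 or more genes. In the lead were Mfap5 (2.84), Mef2c (2.09), Itga8 (1.95) and Mylk (1.44). Mfap5 also stands in the fibroblast list, Mef2c among the regulators and Mylk among the contraction genes, so these counts share genes. Of 23 dermal papilla genes 8 were lower and 3 higher, or 10 and 2, the lower ones Rspo3 (-2.97), the protease Corin (-2.82), Crabp1 (-2.69) and Rspo2 (-2.67) among them, while Ntn1 and the BMP antagonist Nog (2.12) were higher. With the cells of under 2000 genes kept in, 3 of 14 pericyte genes were higher (Cspg4 2.52, Pdgfrb 2.15 and Anpep 1.12). So were 5 of 22 regulators and 5 of 13 fibroblast genes, and of 16 keratinocyte genes none was called. Cytoplasmic Actb was 1.89 higher, and 0.85 among cells of 2000 or more genes. Tpm1 was 1.69 higher, and 1.09 among those cells.

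**Figure D5:**
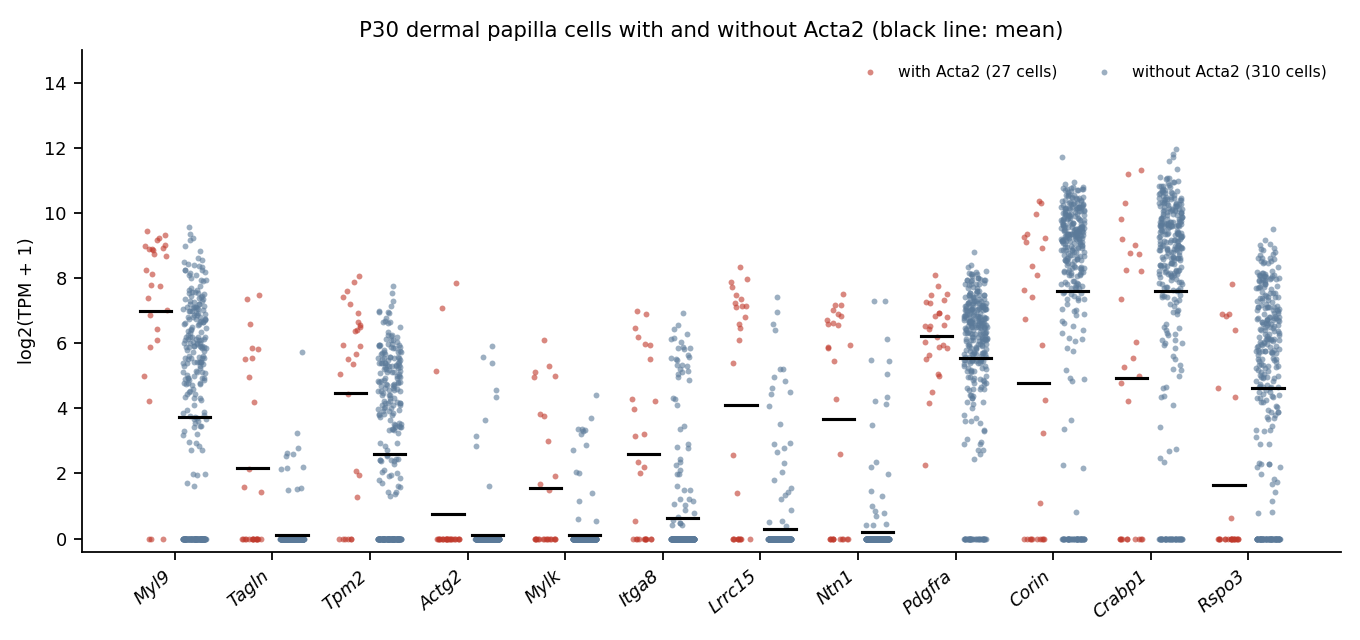
log2(TPM + 1) (y axis) of 12 genes in P30 dermal papilla cells, 1 point per cell, with the 27 cells that have Acta2 in red on the left and the 310 without it in blue on the right, and black lines at the means. Myl9, Tagln, Tpm2, Lrrc15 and Ntn1 stand higher and Corin, Crabp1 and Rspo3 lower in the cells with Acta2, with overlap in every gene shown.

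Actg2, the other smooth muscle actin, was set beside the other members in each sort. Of 12 dermal papilla cells with Actg2, all had Myl9 and Tpm2 (64.7% and 57.9% of the whole sort). Acta2 was in 3 of the 12 (8.01% of the sort), Tagln in 2 (7.12% of the sort) and Myh11 in 0 (0.593% of the sort). Of 18 hair bulb cells with Actg2, 14 had Acta2 (25.8% of the sort) and 14 had Myh11 (6.77% of the sort). The transcripts of Acta2 and Actg2 can be told apart by sequence, since 0 of the 2006 windows of 30 bases in the longest Acta2 transcript occur in Actg2, against 27 in Actg1 and 18 in Actb. The 2 dermal papilla cells with 5 members both had Actg2 (133.5 and 34.6 TPM) and no Krt5. Against the other cells of the sort, 28.8% of 12320 genes were called higher and 21.4% lower, in a class of only 2 cells (3545 genes higher and 2639 lower). That balance turned, as without plate DP3, which leaves 1 cell in the class, 3158 were higher and 4393 lower, rescaled values gave 4025 and 4138, and cells of 2000 or more genes 3127 and 3168. Dermal papilla genes were lower in 13 and higher in 1 of 23 there, and contraction genes higher in 15 and lower in 1 of 26.

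Before P30, 1 cell held 5 or more members, and 2 bulge cells held 4. An Ana2 matrix cell on plate 914mat held all 9 genes, with Acta2 at 3349 TPM, Myl9 at 2240 TPM, Rgs5 at 560 TPM, Actg2 at 515 TPM and Myh11 at 174.6 TPM. It had Notch3 (203.6 TPM) and Pdgfrb (70.02 TPM), Krt5 at 0 and 4366 genes, and it resembled the hair bulb Myh11 cells in having mural receptors with the full set. A bulge cell held 4 members with Acta2 at 586 TPM and Des at 79.2 TPM, beside Actc1 at 1453 TPM, Krt5 at 686 TPM and Krt14 at 1217 TPM. Another bulge cell with 4 members held Cnn1 at 44.5 TPM and Tpm2 at 84.6 TPM, with Acta2 at 0.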

How the data were processed

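The authors deposited 3 tables of TPM values, 1 for the P21 to P27 cells and 1 for each P30 sort, with 46609 rows, 92 of them spike-ins. The submitters' processing notes name Bowtie2 2.2.9, RSEM 1.2.30 and the build mm10. Every deposited TPM column sums to 1000000 within rounding, so read depth is unknown, and ribosomal RNA rows take a median of 54.3 to 76.4% of it. The tables were normalized separately. The dermal papilla table parts its fields by a slash and a letter t, and was read as such. No columns were identical and 0 were left unmatched.

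Cells took their type from the authors' labels. Genes were tested for size where 10% of the cells of 1 class had them, on log2(TPM + 1) with a pseudocount of 1. With 1 sample per group there was no test. Genes were named by rule: the 10 highest and 6 lowest per comparison with 30% of cells in 1 class and 1 sign on every plate with 5 class cells, the 6 genes most like Acta2 and Rgs5, and up to 4 per list, without predicted models. Some genes the rule takes are not named. The lists share some genes, such as Notch3 in the pericyte and regulator lists, so their counts are not separate. The 9 genes, the lists and the rule were chosen with earlier results of these data known, and the classes by Myh11, Krt5, Cnn1, Acta2 and muscle progenitor genes were added after values were seen. Lgr5 and Pdgfra were also picked after that. Positions are GRCm38. The code (Python 3.11.15, numpy 2.4.6, pandas 2.3.3, scipy 1.17.1, matplotlib 3.10.9) was tested on simulated data. Alternatives were a TPM of 10, 4 or 6 members, a pseudocount of 10, rescaling, cells of 2000 genes, no filter, and each plate left out.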

Additional observations from a re-analysis of the deposited data

How the results depend on the processing

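No paired analysis was possible because the labels give single cells with no replicate numbers shared between groups. At a TPM of 10, Krt5 was in 26.1% of hair bulb cells with 5 or more members (46.2% as reported) and Acta2 and Krt5 cells made up 10.4% (13.8%). With 4 members, 14.3% of hair bulb cells (6.77%) and 4.45% of dermal papilla cells (0.593%) were in the class, Krt5 was in 72.7% of the hair bulb class, and 16.4% of genes were called in the dermal papilla (50.2%). With 6 members the dermal papilla class was 0%.

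The share of genes called by 1 or more moved most. Rescaling without technical rows gave 35.6% for 5 or more members in the hair bulb (21.9%), 16.5% for Acta2 and Krt5 cells (10.6%), 15.7% for dermal papilla Acta2 cells (8.58%) and 29.8% for Cnn1 (17.1%). With the cells as first chosen, an alternative added after seeing the data, these shares were 36.5%, 20.8%, 15.7% and 30.9%, and 39.1% for Myh11 cells (23.3%). The median of all genes was then lower by over 0.1, at -0.33 for 5 or more members (-0.20), -0.44 for the dermal papilla class (-0.28) and -0.44 for Myh11 cells (-0.26). A pseudocount of 10 gave 5.15%, 1.82%, 1.26%, 1.86% and 5.23% in the same order, and 16.97% for the dermal papilla class. It put 63.6% of calls on the higher side (42.9%) for 5 or more members in the hair bulb, 58.97% (37.05%) for Myh11 cells and 60.9% (37.1%) for Acta2 and Krt5 cells.

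Leaving out each plate gave 5.81 to 7.59% for the hair bulb class and for Myh11 cells, 0.400 to 0.797% for the dermal papilla class, 38.1 to 55% for Krt5 in the hair bulb class, 38.9 to 47.4% for Krt5 in Myh11 cells, 12.01 to 15.8% for Acta2 and Krt5 cells, 6.40 to 9.20% for dermal papilla Acta2 cells, 4.85 to 7.26% for muscle progenitor gene cells and 47.6 to 73.7% for Cnn1 in Myh11 cells. Genes called for Cnn1 ran from 16.3 to 26.2%, the highest without plate P1-4. The balance of higher and lower calls also turned for the Cnn1 split without plate P1-5 (1423 and 1237, against 771 and 1529), for dermal papilla Acta2 cells of 2000 or more genes (44.5% of calls higher, against 76.4%), and for the dermal papilla class without plate DP3 (3158 and 4393, against 3545 and 2639), rescaled (4025 and 4138) or with cells of 2000 or more genes (3127 and 3168). No member difference between types of 1 or more in size changed its sign with a plate left out. The named genes were followed in the other alternatives only, and not with a plate left out. There they stayed past 1 except 1 of 6 (4 members, hair bulb), 2 of 6 (pseudocount of 10, Acta2 and Krt5 cells) and 2 of 10 (4 members, dermal papilla).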
